A study of Mus musculus with 72 samples.

Results

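The cells described here were 19 single neurons that carried Slc6a4-cre and Pet1-Flpe and were picked by hand from 2 neighbouring parts of the mouse dorsal raphe (DR) nucleus. They were 10 cells of the dorsolateral DR (dlDR) and 9 cells of the dorsomedial DR (dmDR), of 70 manually sorted cells among the 72 samples of the series, and they were chosen by the subdomain and the Cre driver that the labels give. All 19 came from mice of the genotype Sert::cre+/-;Pet1::Flpe+/-;RC::FrePe+/-. EGFP in these mice marks cells in which both recombinases have acted, Sert::cre being a bacterial artificial chromosome transgene with regulatory sequence of Slc6a4 and Pet1::Flpe a transgene with that of Fev. The mark records recombination at any time in the life of a cell. The dlDR cells were 5 cells of postnatal day 63 and 5 of day 90, and the dmDR cells were 6 cells of day 63 and 3 of day 90. Cells of the same genotype from 2 other subdomains are given beside them for some genes, 8 ventromedial cells (4 of day 63 and 4 of day 90) and 6 caudal cells (all of day 63). The labels give no treatment and name no animal, so that the cells of a group count as 1 sample, no test between dlDR and dmDR was made, and every comparison describes these 19 cells.

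Serotonin neurons make serotonin from tryptophan with tryptophan hydroxylase (Tph2), load it into vesicles with the vesicular monoamine transporter (Slc18a2) and take it back up with the serotonin transporter (Slc6a4), and the transcription factor Fev (also called Pet1) keeps these genes active. The DR holds several molecular kinds of these neurons, which differ in the peptides, receptors and further transmitters that they add to serotonin. Thyrotropin-releasing hormone (Trh) and prodynorphin (Pdyn, the precursor of the dynorphin opioid peptides) are among these peptides, and the receptor tyrosine kinase Kit and the orexin receptors are among the receptors.

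The peptide genes Pdyn and Trh leaned to opposite subdomains, and the bases before their starts are shown because each gene was read in some cells and absent from others. The window before Fos is shown for the immediate early genes described further on. Each window holds the 250 bases before the start site that RefSeq gives on the GRCm38.p6 build (the upstream-most of the 2 starts for Pdyn), read 5′ to 3′ on the strand of the gene. The windows lie at chr2:129699939-129700188 for Pdyn (minus strand), at chr6:92244651-92244900 for Trh (minus strand) and at chr12:85473640-85473889 for Fos (plus strand). Capitals mark the letters TGACG and TGACNTCA on either strand, the core and a fuller form of the cyclic AMP response element, which may overlap each other.
Pdyn: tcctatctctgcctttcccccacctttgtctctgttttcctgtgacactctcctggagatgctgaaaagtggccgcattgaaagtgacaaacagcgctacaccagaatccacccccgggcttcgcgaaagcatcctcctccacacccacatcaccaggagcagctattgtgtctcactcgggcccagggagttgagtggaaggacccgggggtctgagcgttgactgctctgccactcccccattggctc
Trh: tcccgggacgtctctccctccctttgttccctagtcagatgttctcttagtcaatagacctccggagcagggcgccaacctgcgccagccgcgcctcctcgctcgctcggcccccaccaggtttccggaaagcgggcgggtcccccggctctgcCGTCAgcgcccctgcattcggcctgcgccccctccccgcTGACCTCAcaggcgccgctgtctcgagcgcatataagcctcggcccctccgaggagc
Fos: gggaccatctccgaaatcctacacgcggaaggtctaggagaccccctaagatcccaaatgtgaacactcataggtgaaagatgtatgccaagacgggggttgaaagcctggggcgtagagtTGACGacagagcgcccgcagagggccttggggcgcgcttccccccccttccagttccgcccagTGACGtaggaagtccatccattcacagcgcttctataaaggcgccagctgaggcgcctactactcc
Fos had 2 matches to TGACG, at bases 129 to 125 and 66 to 62 before its start. Trh had 1 match to TGACG, at bases 96 to 92, and 1 to TGACNTCA, at bases 57 to 50. Pdyn had neither motif, which says only that these letters are not in this window. Of 32851 promoter windows of this length, 17.8% held TGACG and 7.49% held TGACNTCA.

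Each cell had its own full-length SMART-Seq v4 library, with 2945215 to 4722862 reads assigned to genes in dlDR cells and 3047128 to 5340551 in dmDR cells. Levels are given as CPM, the reads of a gene per 1000000 reads assigned to genes in that cell, and are compared between cells and not between genes. Genes with a read numbered 6435 to 10208 in dlDR cells (median 9122) and 7379 to 10605 in dmDR cells (median 9711). The label of serotonin neuron held in every cell, as all 19 carried Tph2, Slc6a4, Slc18a2 and Fev. Slc32a1, Slc17a6, Slc17a7, Chat, Slc5a7 and Slc18a3, which mark GABA, glutamate and cholinergic neurons, summed to 0 CPM in each of the 19 cells, and 8 microglia genes summed to at most 6.21 CPM. The 5 genes of dopamine and noradrenaline neurons summed to at most 17.5 CPM in dlDR and 27.9 CPM in dmDR cells. The 7 vessel genes summed to at most 36.4 and 18 CPM. The 9 oligodendrocyte genes summed to 18 to 524 CPM in dlDR and 51.9 to 293 CPM in dmDR cells, and the 7 astrocyte genes to at most 3.58 and 52.9 CPM. Traces of myelin RNA were thus present in both groups.

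**Figure D1:**
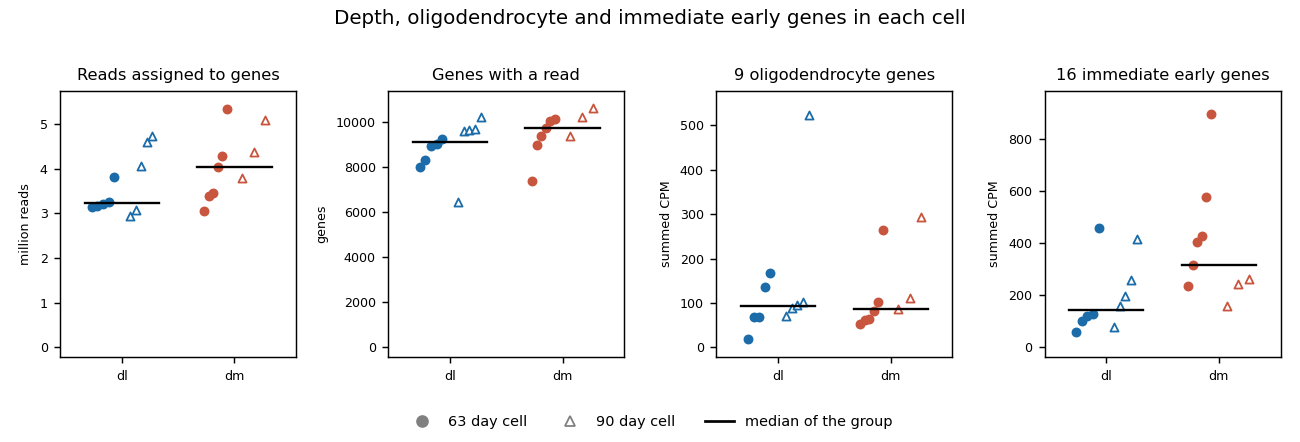
Depth and contents of each cell. Each point is 1 cell, circles are 63 day and open triangles 90 day cells, the bar is the group median, and the vertical axes give reads in units of 1000000, genes with a read, and the summed CPM of the 9 oligodendrocyte and the 16 immediate early genes. The median of the immediate early sum was 141.5 CPM in dlDR and 317 CPM in dmDR cells.

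The serotonergic genes lay close together in the 2 subdomains. Tph2 ranged over 6658 to 13953 CPM in dlDR cells and 3442 to 16399 CPM in dmDR cells, with medians of 11385 and 11015 CPM and a log2 ratio of the group means, dlDR over dmDR, of 0.10. Slc6a4 gave a log2 ratio of -0.10, over 1664 to 6417 CPM in dlDR and 1856 to 5864 CPM in dmDR cells. Slc18a2 leaned to dlDR. Its levels of 1843 to 7075 CPM in dlDR (median 3894) overlapped those of 1192 to 4307 CPM in dmDR (median 2439), and its log2 ratio was 0.66 over all cells, 0.64 at 63 days and 0.57 at 90 days. The dlDR cell had the higher Slc18a2 value in 77.8% of the 90 pairs of a dlDR and a dmDR cell. Fev gave a log2 ratio of 0.34, with medians of 748 and 508 CPM. En1, a homeobox gene of the midbrain and isthmus, was read in every cell with a ratio of 0.35, and its relative En2 reached 5 CPM in 8 of 10 dlDR and 4 of 9 dmDR cells.

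To list the genes that set the groups apart, a gene was examined where its mean was at least 10 CPM over the 19 cells and at least 5 cells reached 5 CPM, which left 8563 genes. A gene lay past the rule where the group means, each with 1 CPM added, differed at least 2-fold in the same direction over all cells, among 63 day cells and among 90 day cells, and where the cell of the higher group had the higher value in at least 80% of the 90 cell pairs. By this rule 25 genes (0.292% of those examined) lay higher in dlDR and 72 genes (0.841%) lay higher in dmDR. The means alone were at least 2-fold apart in 385 genes with dlDR higher (4.5%) and in 527 with dmDR higher (6.15%). No gene separated the groups completely: in 0 of 8563 genes (0.0% in each direction) did every cell of a group lie above every cell of the other. The median log2 ratio over all examined genes was -0.01. The median of the mean levels, not corrected for length, was 19.65 CPM for the dlDR set and 27.06 CPM for the dmDR set against 47.67 CPM for all examined genes. The median length of the longest annotated transcript was 3405 bases for the dlDR set, 4527 bases for the dmDR set and 3476 bases for all examined genes. The part of transcript length, and of the larger number of genes read in dmDR cells, in these counts was not tested.

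**Figure D2:**
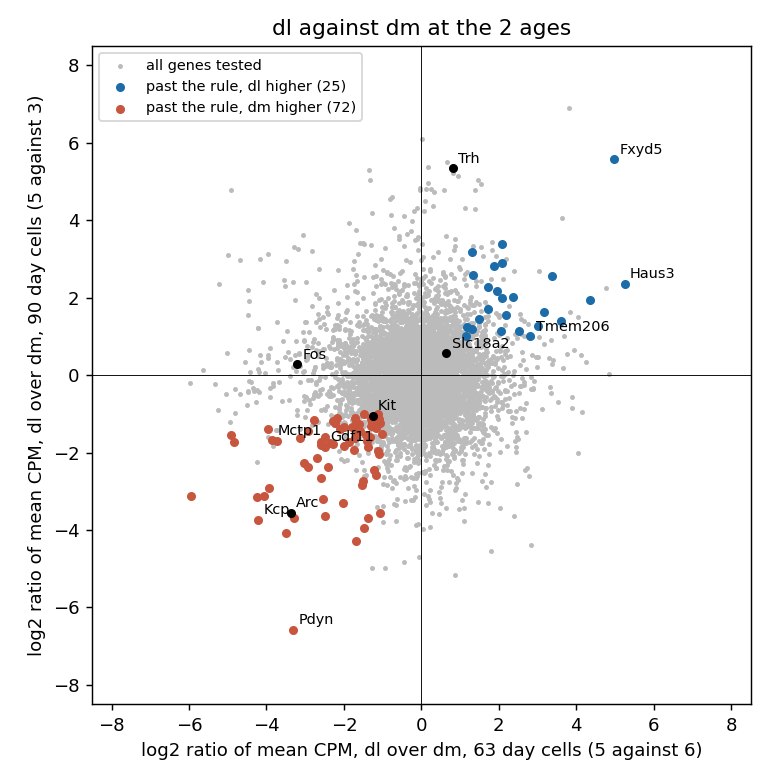
Comparison at the 2 ages. Each grey point is 1 of the 8563 examined genes, the horizontal axis gives the log2 ratio of mean CPM (dlDR over dmDR) among 63 day cells and the vertical axis the same among 90 day cells, and coloured points are the 25 and 72 genes past the rule. Pdyn lies low at both ages, at -3.32 and -6.57, and Fos at -3.21 and 0.28.

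Among the genes higher in dlDR, Tmem206, which encodes the proton-activated chloride channel, had the highest share of pairs. It measured 121, 51.2, 78.9, 19.4 and 102 CPM in the 63 day dlDR cells and 95.7, 13.3, 38.5, 48.1 and 54 CPM in the 90 day ones. In dmDR it measured 11.8, 2.23, 31.3, 0, 0 and 13.3 CPM at 63 days and 7.08, 47.4 and 18.2 CPM at 90 days. Every dlDR cell had reads, 4 dmDR cells fell within the dlDR range, and the dlDR cell was higher in 92.2% of pairs, with a log2 ratio of 2.02. Haus3, a subunit of the augmin complex that branches microtubules, was the most nearly on or off. It reached 5 CPM in 8 of 10 dlDR cells (80%, exact 95% interval 44.4% to 97.5%), at 20.9 to 65.9 CPM, and in 1 of 9 dmDR cells (11.1%, 0.281% to 48.2%), at 18.2 CPM, while the other 10 cells had no read. Its log2 ratio was 3.62, and it became 3.49 without dlDR cell 3 and 5.22 without dmDR cell 9. These are Clopper-Pearson intervals and cover counting error over the cells of a single sample only.

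Tefm, the elongation factor of the mitochondrial RNA polymerase, had medians of 22.3 CPM in dlDR and 0 CPM in dmDR cells. It reached 5 CPM in 8 of 10 and 3 of 9 cells. Its log2 ratio of 2.24 became 2.1 without dlDR cell 8 and 3.04 without dmDR cell 1. Lypd1, a membrane-anchored protein of the family that modulates nicotinic receptors, was at 3.9 to 219 CPM in the 10 dlDR cells. In dmDR it was at 51.1 and 41.6 CPM in cells 5 and 7 and at most 4.2 CPM in the other 7. The log2 ratio of Lypd1, 2.32, became 1.81 without dlDR cell 10 and 3.10 without dmDR cell 5. Gpd2, the mitochondrial glycerol-3-phosphate dehydrogenase, was at 29.9 to 99.6 CPM in dlDR cells, and dmDR cells 1 and 2, at 58.1 and 93.8 CPM, lay within that range. Its log2 ratio was 1.50 with all cells, 1.34 without dmDR cell 4 and 2.29 without dmDR cell 2. Dnmt1, the maintenance DNA methyltransferase, ran over 3.17 to 77.5 CPM in dlDR and 0 to 17.9 CPM in dmDR cells, with a log2 ratio of 2.11. Thap7, a zinc finger protein, had the smallest ratio of the 12 leading dlDR genes, 1.24, at 18.5 to 68.5 CPM in dlDR and 0 to 31.1 CPM in dmDR cells. The other leading dlDR genes were Gpalpp1, Retreg3 (a receptor for the turnover of endoplasmic reticulum), Zfp354b, Cdc42ep4 (an effector of the GTPase CDC42) and Timmdc1 (an assembly factor of respiratory complex I). Their log2 ratios lay between 1.71 and 3.05, and the dlDR cell was higher in 83.3% to 88.3% of their pairs.

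Fxyd5, a regulator of the sodium-potassium pump, also lay past the rule and was singled out after its values were seen because no dmDR cell had a read. It was at 12.6 to 151 CPM in 6 dlDR cells and at 0 in the other 4. Against the 3 reads that a count of 0 allows over the 9 dmDR cells, its summed dlDR level of 42.8 CPM was at least 525-fold higher. PCR reads without molecular identifiers are not independent molecules, so that each interval and bound given here covers counting error only.

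Among the genes higher in dmDR, Gdf11, a secreted ligand of the TGF-beta family, came nearest to separating the groups. It measured 21.7, 55.3, 14.9, 61.5, 47.3 and 38.4 CPM in the 63 day dmDR cells and 63.7, 12.2 and 24.8 CPM in the 90 day ones. In dlDR it measured 0.318, 0, 11.4, 12 and 7.69 CPM at 63 days and 11.9, 0, 11.6, 2.96 and 16.6 CPM at 90 days. Only dmDR cells 3 and 8 fell below the highest dlDR cell, the dmDR cell was higher in 97.8% of pairs, and the log2 ratio was -2.20, between -2.38 and -2.06 when each cell was left out in turn. Gdf11 lies at chr10:128882295-128891718 on the minus strand (mm10). Summed over cells, the level of Gdf11 was 7.09 CPM in dlDR (exact Poisson 95% interval 6.25 to 8.02) and 37.1 CPM in dmDR (35.1 to 39.1). In the other 2 Slc6a4-cre groups, the median level of Gdf11 was 6.7 CPM in 8 ventromedial and 5.99 CPM in 6 caudal cells. Other leading genes differed in this. These medians were 18.4 and 21.6 CPM for Dnmt1 (dlDR 17.8 CPM) and 29.5 and 18.2 CPM for Cep131 (dmDR 11 CPM), above the group listed as higher. For Haus3 they were 0.613 and 12.7 CPM, below the 43 CPM of dlDR. For Lypd1 (dlDR 36.2 CPM) the ventromedial median was above, at 61.3 CPM, and the caudal below, at 21.6 CPM.

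Kcp, a secreted modulator of BMP signalling, was at 5.43 CPM in dlDR cell 5 and at 0 in the other 9 dlDR cells, and was read in 8 of 9 dmDR cells at 2.56 to 65.6 CPM. Cpq, a carboxypeptidase, was read in all 9 dmDR cells at 5.94 to 84.2 CPM and in 3 of 10 dlDR cells at 7.06 to 19 CPM. Cep131, a protein of centriolar satellites, was read in dlDR cell 10 alone at 26.5 CPM and in all 9 dmDR cells at 0.374 to 60.1 CPM. The log2 ratio of Cep131, -2.46, became -4.33 without that dlDR cell and -2.03 without dmDR cell 5. Herc1, a very large ubiquitin ligase, was at 133 to 444 CPM in dmDR cells and at 64.6 to 207 CPM in 9 dlDR cells, with none in dlDR cell 6. The log2 ratio of Herc1 was -1.16 at 63 days and -1.20 at 90 days. Rap2a, a small GTPase of the Ras family, was at 6.55 to 50.2 CPM in dlDR and 15.3 to 115 CPM in dmDR cells, with a log2 ratio of -1.56. The other leading dmDR genes were Rexo1, Usp36 (a nucleolar deubiquitinase), Hivep3 (a zinc finger transcription factor), Uhrf1bp1l, Obsl1 (a cytoskeletal adaptor) and Mtss1l, with log2 ratios between -2.72 and -1.72 and a dmDR cell higher in 91.1% to 93.3% of their pairs.

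**Figure D3:**
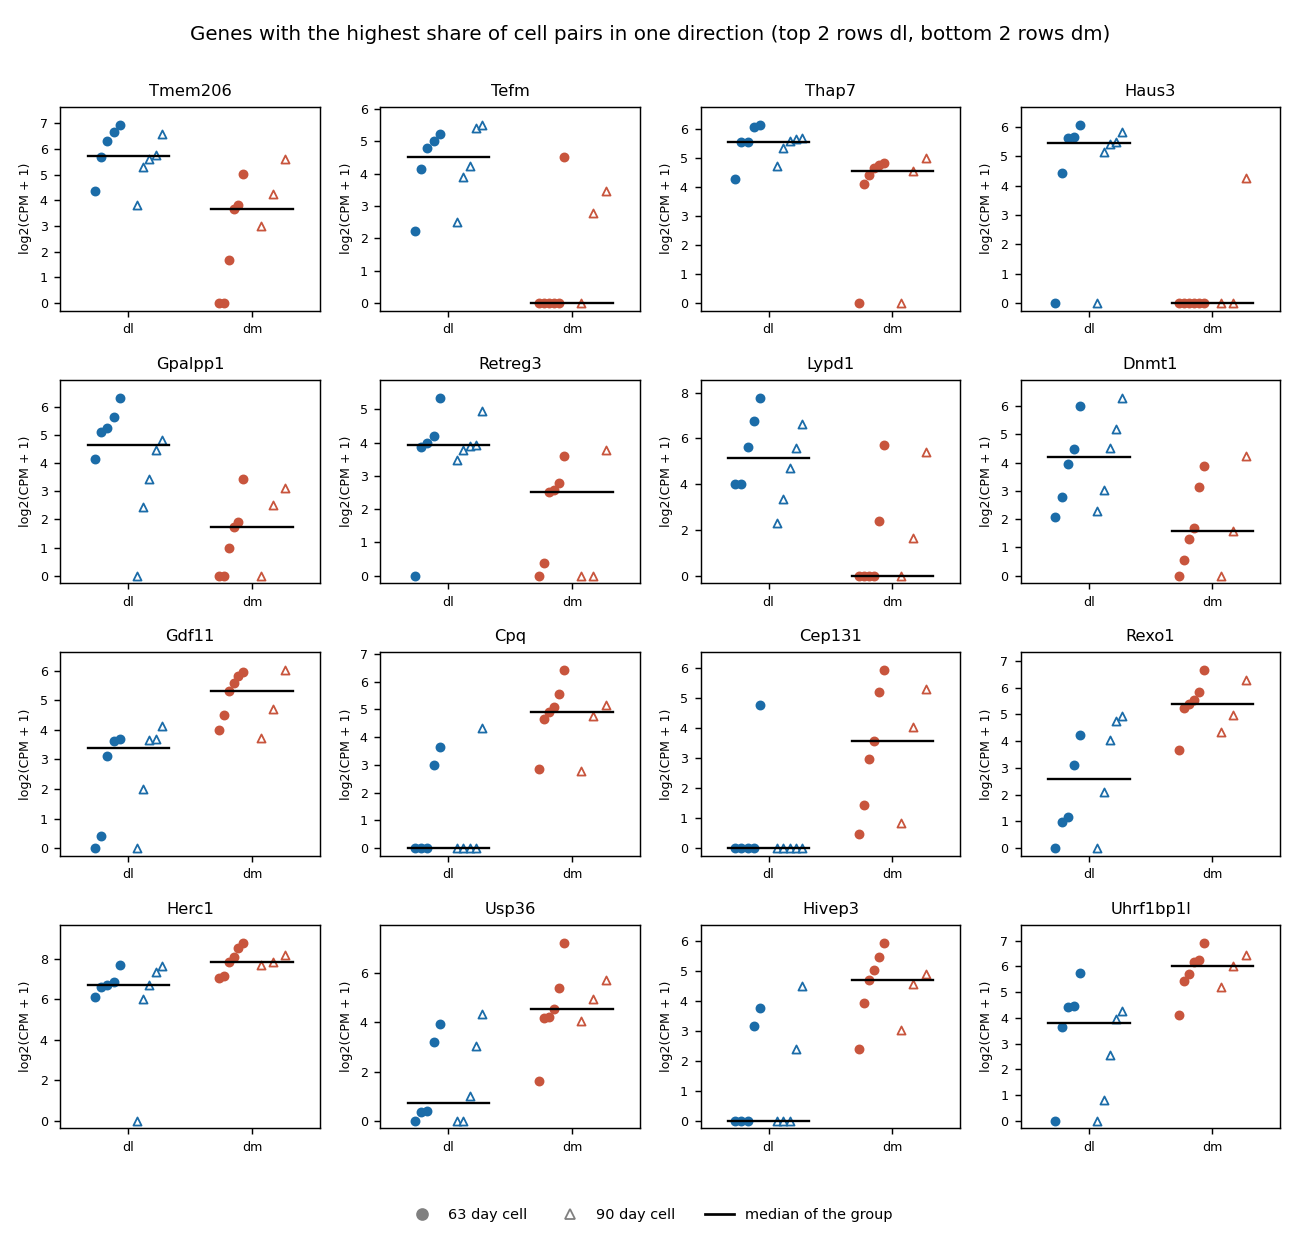
The 8 leading genes of each direction. Each point is 1 cell on a scale of log2(CPM + 1), circles are 63 day and open triangles 90 day cells, and bars are group medians. The groups overlap in each panel, and cells without a read are frequent for Haus3 in dmDR and for Cep131 in dlDR.

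Of the 342 examined genes of the function and marker lists, 5 (1.46%) lay past the rule, a share near the 1.13% of all examined genes in either direction, and all 5 were higher in dmDR. Of these, 4 are described. Pdyn had the largest ratio. It measured 202, 85.1, 6.76, 0, 0 and 116 CPM in the 63 day dmDR cells and 0, 42.3 and 240 CPM in the 90 day ones, and 29.9 CPM in dlDR cell 10 with no read in the other 9 dlDR cells. Pdyn therefore reached 5 CPM in 6 of 9 dmDR cells (66.7%, 29.9% to 92.5%) and in 1 of 10 dlDR cells (10%, 0.253% to 44.5%). The log2 ratio was -4.29 and became -6.28 without dlDR cell 10. It was smaller in size without dmDR cell 9, whose 240 CPM was the highest level. Mctp1, a calcium-binding membrane protein, was at 280 and 319 CPM in dmDR cells 1 and 6, at 110 CPM in cell 9 and at 3.94 to 35.2 CPM in the other 6, and was at most 32.3 CPM in dlDR cells. Nfasc, the neurofascin of the axon initial segment and node, was read in all cells, at 7.96 to 76.9 CPM in dlDR and 51.9 to 220 CPM in dmDR, with a log2 ratio of -1.13. Cpne9, a copine, was read in all 9 dmDR cells at 7.88 to 107 CPM, and in 4 of 10 dlDR cells at 43.1 to 56.4 CPM with none in the other 6.

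Trh leaned to dlDR without passing the rule. In dlDR it measured 0, 26.5, 0, 437 and 0 CPM at 63 days and 76.4, 90.1, 167, 642 and 16.3 CPM at 90 days, and in dmDR 0, 0, 0, 18, 296 and 0.187 CPM at 63 days and 11.2, 0 and 0.528 CPM at 90 days. All 5 of the 90 day dlDR cells were above all 3 of the 90 day dmDR cells, which held for 2.03% of all examined genes at that age (2.88% in the opposite direction), while at 63 days 3 of 5 dlDR and 3 of 6 dmDR cells had no read. The log2 ratio was 1.98 over all cells, 0.81 at 63 days, 5.34 at 90 days and 4.95 without dmDR cell 5. It was below 1.98 without dlDR cell 8, whose 642 CPM was the highest level. No cell of the 19 reached 5 CPM of both Pdyn and Trh: 7 dlDR and 3 dmDR cells reached it for Trh alone, 1 dlDR and 6 dmDR cells for Pdyn alone, and 2 dlDR cells for neither. Asb4, a substrate receptor of a ubiquitin ligase and a marker of cluster 2 of the study, was chosen after its values were seen. Asb4 reached 5 CPM in 9 of 10 dlDR cells, at 102 to 1632 CPM, and in 5 of 9 dmDR cells, at 60.6 to 1495 CPM, and each cell with 5 CPM of Trh also had 5 CPM of Asb4. Crym, a thyroid hormone-binding protein, reached 5 CPM in 7 dlDR and 4 dmDR cells. The log2 ratio of Crym, 1.49, was 0.16 without dlDR cell 7, whose 437 CPM was the highest level.

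**Figure D4:**
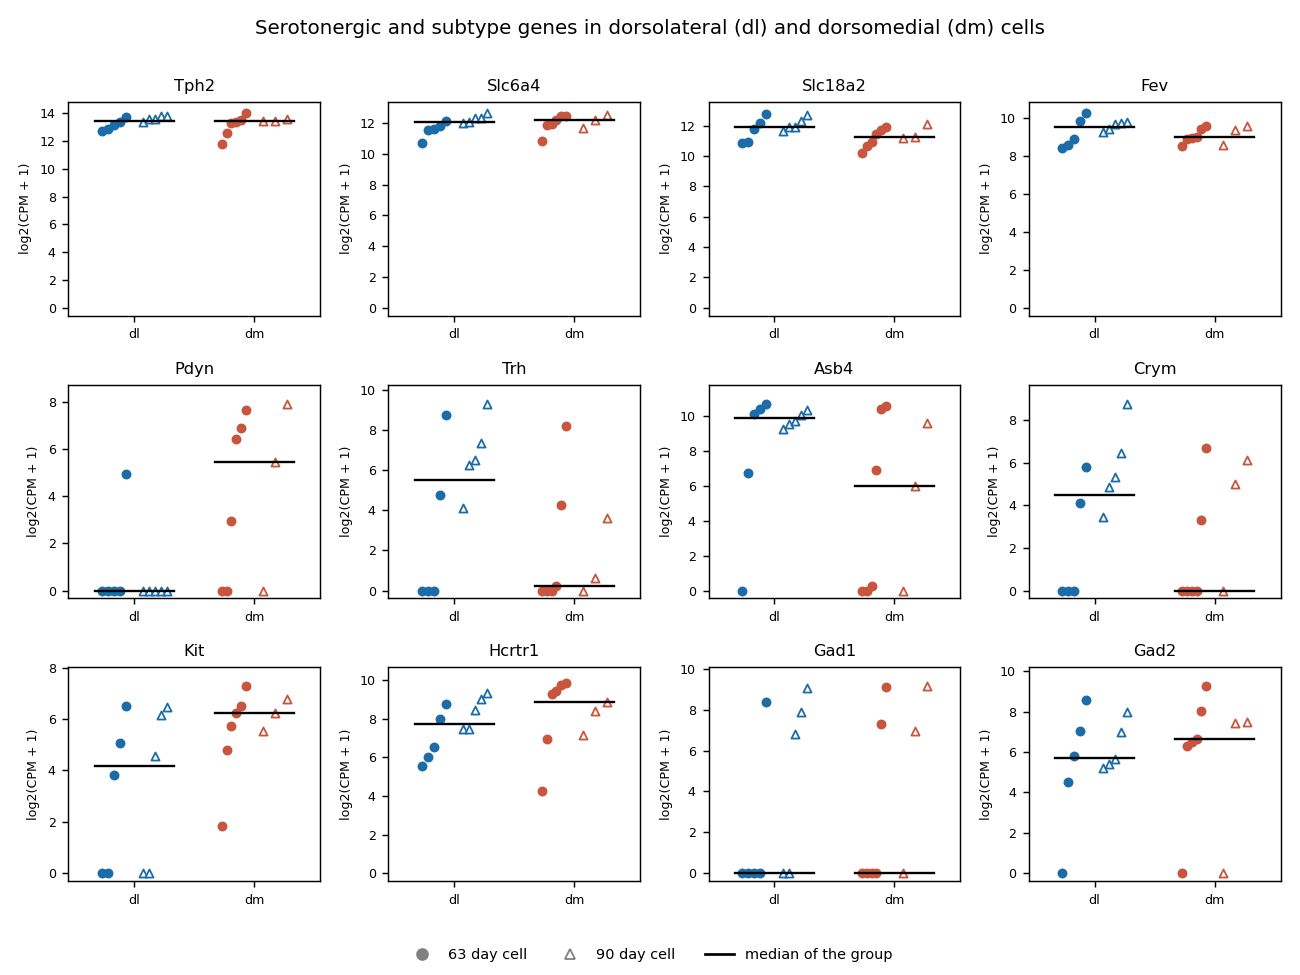
Serotonergic and subtype genes. Each point is 1 cell on a scale of log2(CPM + 1), circles are 63 day and open triangles 90 day cells, and bars are group medians. Tph2, Slc6a4, Slc18a2 and Fev were read in every cell, and Pdyn was read in 1 of 10 dlDR and 6 of 9 dmDR cells.

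Kit was at 89.5, 13.1, 0, 0 and 32.9 CPM in the 63 day and 22.7, 87.9, 0, 0 and 71.2 CPM in the 90 day dlDR cells, and at 2.61 to 153 CPM in all 9 dmDR cells. The log2 ratio of Kit was -1.11, and it missed the rule because the dmDR cell was higher in 76.7% of pairs and not in 80%. The orexin receptor gene Hcrtr1 was read in every cell, at 45.8 to 649 CPM in dlDR and 18.4 to 939 CPM in dmDR. The log2 ratio of Hcrtr1 was -1.60 among 63 day and 0.24 among 90 day cells. Hcrtr2 reached 5 CPM in 4 dlDR and 5 dmDR cells, and its ratio also turned with age, from 0.87 at 63 days to -5.15 at 90 days. The histamine receptor genes Hrh1 and Hrh3 gave log2 ratios of 0.29 and 0.19. Of the 3 serotonin receptor genes examined, the autoreceptor Htr1a gave 0.14, Htr1b 1.18 and Htr1d 1.05, values given after they were seen, and none lay past the rule.

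Genes for GABA and glutamate were read in cells of both subdomains. Gad1, which encodes a glutamate decarboxylase that makes GABA, was at 110, 529, 234 and 327 CPM in dlDR cells 6, 7, 8 and 10 and at 159, 545, 125 and 562 CPM in dmDR cells 5, 6, 7 and 9, and had no read in the other 11 cells. Gad2 reached 5 CPM in 9 of 10 dlDR and 7 of 9 dmDR cells, with a log2 ratio of -0.60. Slc17a8, the vesicular glutamate transporter VGLUT3, was at 13.3, 5.72 and 48 CPM in dlDR cells 3, 8 and 10 and at 111 and 45.3 CPM in dmDR cells 1 and 6, and below 1 CPM in the others. In the ventromedial and caudal groups Slc17a8 reached 5 CPM in 6 of 8 and 6 of 6 cells. Trh reached 5 CPM in 0 and 0 cells of those groups, Kit in 2 and 1 and Pdyn in 2 and 2.

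Transcription factor genes that the study names for its clusters were read in part of the cells of each group. Klf5 reached 5 CPM in 9 dlDR and 7 dmDR cells, with medians of 47.6 and 15.9 CPM and a log2 ratio of 1.05. Pax5 and Sox14 each reached 5 CPM in 6 dlDR cells and in 4 and 5 dmDR cells, with log2 ratios of 0.03 and -0.58. Npas1 was at 60.9, 9.51 and 5.54 CPM in dlDR cells 3, 5 and 10 and at most 1.58 CPM in dmDR. Pou3f2 was read in dlDR cell 10 alone, at 16.9 CPM, the same cell that was the single dlDR cell with Pdyn. Met and Nr2f2 had no read in any of the 19 cells, and Nr2f2 reached 5 CPM in 4 of the 6 caudal cells.

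The marker genes that the study lists for its 10X clusters were counted by direction. Of the 19 examined markers of cluster 2, 16 had the higher mean in dlDR and the median log2 ratio was 0.42, against 49.2% and -0.01 over all examined genes. Of the 22 of cluster 3, 18 had the higher mean in dmDR, and the median was -0.39. Of the 19 of cluster 5, which include Pdyn, 18 had the higher mean in dmDR, and the median was -0.65. Of the 10 of cluster 11, which include Mctp1, 9 did, and the median was -0.74. Cells 1 and 6 of dmDR carried that difference: their mean log2(CPM + 1) over the cluster 11 markers was 7.51 and 7.43, against 2.11 to 3.82 in the other 7 dmDR cells and 2.13 to 5.2 in dlDR, and the median over cells was lower in dmDR (3.33) than in dlDR (3.65). Markers of cluster 4 had the higher mean in dlDR in 15 of 19 cases, with a median of 0.32, and those of cluster 6 in 10 of 16, with a median of 0.18. For clusters 1, 7, 8, 9 and 10, with 7 to 11 examined markers each, the medians were 0.54, -0.54, 0.16, -0.52 and -0.58, and clusters 12 and 13 had 1 examined marker each. Per cell, the mean log2(CPM + 1) of the cluster 2 markers was 6.22 ± 1.37 in dlDR (SD, n = 10 cells) and 5.21 ± 1.72 in dmDR (SD, n = 9 cells), and that of the cluster 5 markers was 5.14 ± 0.79 and 6.18 ± 1.25. Cells 1, 6 and 9 of dmDR had the highest cluster 5 scores, 8.15, 7.45 and 7.07, and the other 6 dmDR cells were at 3.89 to 6.08, against 4.31 to 6.72 in dlDR. The groups overlapped in both scores.

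Each cell was also matched to the 10X cells, clustered again here from the deposited counts, so that the clusters may differ from those of the study. In dlDR, 7 of 10 cells were assigned to cluster 2, with prediction scores of 0.8444 to 0.9366, and cells 1, 3 and 10 to clusters 3, 1 and 6. In dmDR, cells 3, 5, 7 and 8 were assigned to cluster 2 at scores of 0.5135 to 0.9173, cells 2 and 9 to cluster 3, cell 4 to cluster 4 and cells 1 and 6 to cluster 11 at scores of 0.407 and 0.3557. The assignment of cells 1 and 6 moved with the settings, and cluster 5 was the second choice for both. At a clustering resolution of 0.7, cell 6 went to a cluster numbered 5 (score 0.4812). That cluster held 350 of the 10X cells, and no cluster was numbered 6 at that resolution. At a resolution of 0.9, clusters 5 and 6 held 166 and 169 of the 10X cells. The move of cell 6 therefore did not tell cluster 5 from cluster 6. Cell 1 went to cluster 9 with canonical correlation (score 0.4191). With canonical correlation, another method of finding anchors between the datasets, 5 dlDR cells and 1 dmDR cell were assigned to cluster 2, at scores of 0.352 to 0.5609. With that method 3 dlDR and 3 dmDR cells went to cluster 12, at scores of 0.3438 to 0.4968, although Met, a marker of that cluster, had no read in any of the 19 cells.

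**Figure D5:**
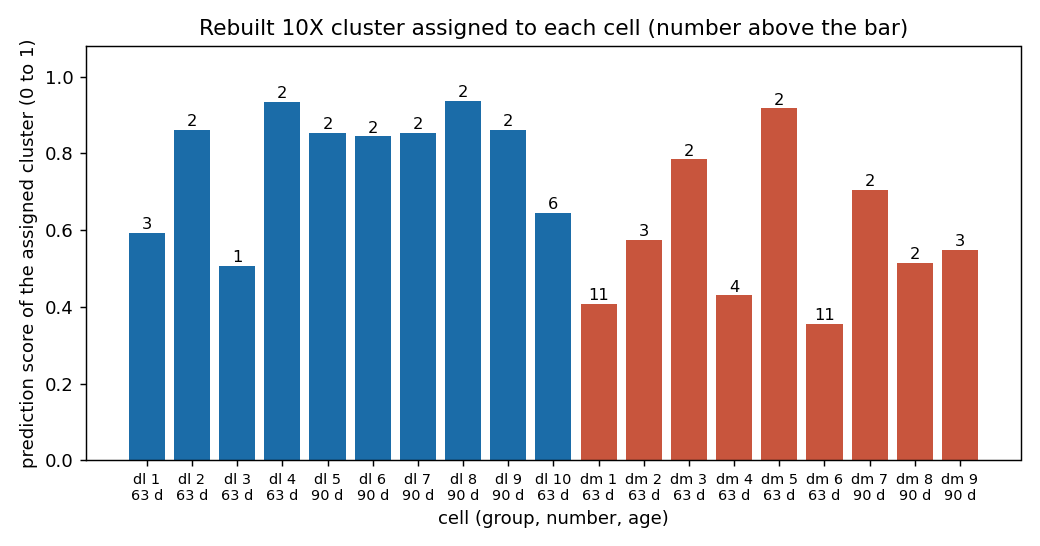
Assignment of each cell to the rebuilt 10X clusters. The vertical axis is the prediction score of the assigned cluster from 0 to 1 for each dlDR and dmDR cell, with the number of that cluster. The 7 dlDR cells of cluster 2 score 0.8444 or more.

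Inside cluster 2, with 7 dlDR and 4 dmDR cells and chosen after seeing the data, 23 of the 25 dlDR genes and 63 of the 72 dmDR genes still differed at least 2-fold in the same direction. Over all examined genes a 2-fold difference was then reached by 9.33% with dlDR higher and 8.81% with dmDR higher, and since these cells also entered the rule, the counts describe them only. In these 11 cells 0.292% of all examined genes with dlDR higher and 0.397% with dmDR higher did not overlap between the groups, among them 2 of the 25 dlDR genes (Gpd2 and Dnmt1) and 8 of the 72 dmDR genes, including Herc1, Cep131, Obsl1 and Mtss1l. Herc1 was at 0 to 207 CPM in dlDR and 229 to 444 CPM in dmDR. Gpd2 was at 29.9 to 99.6 CPM in dlDR and at most 7.23 CPM in dmDR. Trh had a log2 ratio of 1.42 there, and Pdyn was at 0 in all 7 dlDR cells. In dmDR, Pdyn was at 42.3 CPM in cell 8, lower in cell 3 and without a read in cells 5 and 7.

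Whole profiles of the 2 groups were close. Over the 8563 examined genes the median Spearman correlation was 0.636 between dlDR cells (45 pairs), 0.691 between dmDR cells (36 pairs) and 0.662 between a dlDR and a dmDR cell (90 pairs). All 9 dmDR cells had a higher mean correlation with the other dmDR cells than with dlDR cells, whereas 3 of 10 dlDR cells were nearer to their own group. The pairs share cells, and the cells differ in the number of genes read.

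Immediate early genes, which neurons transcribe soon after activity or stress, were also compared as a check. The 16 genes summed to 58 to 456 CPM in the 63 day dlDR cells and 236 to 894 CPM in the 63 day dmDR cells, and at 90 days to 78.1 to 416 and 159 to 264 CPM. Of the 8 examined members, 7 had the higher mean in dmDR, the median log2 ratio was -0.93, and none lay past the rule. The means were at least 2-fold apart for Fos (-1.75), Junb (-1.46), Egr1 (-1.42) and Arc (-3.47), 4 of the 8 members, as they were with dmDR higher for 6.15% of all examined genes. Fos measured 27.1, 0, 0, 53.1 and 37.9 CPM in the 63 day dlDR cells and 77.1, 200, 551, 167, 156 and 211 CPM in the 63 day dmDR cells, with no overlap at that age, which held for 0.514% of all examined genes with dmDR higher and 0.257% with dlDR higher. At 90 days Fos measured 52.3, 2.61, 178, 118 and 35.8 CPM in dlDR and 30.4, 43.1 and 117 CPM in dmDR, so that the log2 ratio turned from -3.21 to 0.28. The cells were taken from slices digested with a protease, and the part of handling in these levels was not tested. The 8 examined heat shock genes had a median log2 ratio of 0.17.

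Of the 26 examined potassium channel genes none lay past the rule, and the median log2 ratio was -0.37. Kcnab1, Kcnb2, Kcnd3, Kcnj9 and Kcnq3, chosen after their values were seen, had means at least 2-fold higher in dmDR (6.15% of all examined genes did), at log2 ratios of -1.59 to -1.18. Among 12 examined cadherins and protocadherins, Cdh2, Pcdh10, Pcdh18 and Pcdh19 had means at least 2-fold higher in dlDR and Pcdh15 in dmDR, against 4.5% and 6.15% of all examined genes, again with none past the rule. Of the 10 ionotropic glutamate receptor genes and the 11 heparan sulfate enzyme genes examined, none had means 2-fold apart.

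The set of genes past the rule moved with single cells. Of the 25 dlDR genes, 5 passed whichever cell was left out (Cdc42ep4, Dnmt1, Gpd2, Haus3 and Tefm), and of the 72 dmDR genes 22 did, among them Cpq, Gdf11, Hivep3, Rap2a, Uhrf1bp1l and Usp36. The dlDR count was 42 without dlDR cell 1, which had the highest mitochondrial share of reads (4.77%), and 40 without dmDR cell 5. Without the 3 cells above 200 CPM of oligodendrocyte genes (dlDR cell 6 and dmDR cells 4 and 8) the rule gave 42 dlDR and 85 dmDR genes, 13 and 40 of them shared with the full set. Without the 3 cells with reads of fewer than 8000 genes (dlDR cells 4 and 6 and dmDR cell 4) the counts were 34 and 75, with 14 and 35 shared. Both choices were made after seeing the data.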

How the data were processed

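Read counts of 10 dlDR and 9 dmDR cells were analysed, with each column matched to a sample by its title. The authors mapped these reads to mm10 with STAR 2.5.4 and deposited counts per gene without normalization. The deposited 10X table holds UMI counts made with Cell Ranger 3.0.2. The annotation used for counting and the sequencer of each cell are not given in the sources used here. CPM was computed over the 24256 genes of the table (Python 3.11.15, pandas 2.3.3), and the rule on folds, ages and cell pairs in the text was applied with a pseudocount of 1 CPM. The labels name no animal, so there was no statistical test. Totals of 2945215 to 5340551 reads per cell set the precision. The members and lists were chosen with earlier results of these data known, and marker names were taken from the supplementary marker list of the study. Genes named were the 12 with the highest share of pairs in each direction, list members past the rule, genes the study names for its clusters and transmitters, and members of check lists. Seurat 5.3.0 in R 4.3.3 clustered the 10X cells (2000 variable genes, resolution 0.9, 20 neighbours) and transferred the cluster numbers, which follow the marker lists. Alternatives were TMM factors (edgeR 4.0.16), DESeq2 1.42.0 size factors, other thresholds and pseudocounts, thinning to 2945215 reads and leaving out each cell. The rule was tested on simulated data, in which some genes made without a difference also passed it and some made with a difference did not. The values of some genes that the naming rule covers are not reported here. Gene positions are from a GENCODE annotation of mm10 and promoters from RefSeq.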

Additional observations from a re-analysis of the deposited data

Results flagged for a closer look

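Of 115 groups of cells examined for a single cell far from the rest, 19 held one. The limit used would be passed by chance in about 1 in 20 groups of normally spread values, which sets of cells that are mostly at 0 are not. In dlDR, cell 1 stood apart with a mitochondrial share of 4.77% of reads, with Nfasc at 7.96 CPM, Gad2 at 0 CPM and Klf5 at 0.318 CPM. Cell 6 had 524 CPM of oligodendrocyte genes and 0 CPM of Herc1. Cell 10 had Cep131 at 26.5 CPM, Pdyn at 29.9 CPM and Pou3f2 at 16.9 CPM, cell 5 had Kcp at 5.43 CPM, and cell 3 had Retreg3 at 0 CPM. In dmDR, cell 4 had the fewest genes with a read, 7379, and the lowest Slc6a4, at 1856 CPM, and Mtss1l, at 1.48 CPM. Cell 9 had Haus3 at 18.2 CPM and Npas1 at 1.58 CPM, cell 8 had Rap2a at 15.3 CPM, and cell 5 had Kit at 2.61 CPM.

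In 2 of the 8563 examined genes the order of the subdomains was opposite at the 2 ages with no overlap at either, a difference that was not tested. Of all examined genes, 0.257% with dlDR higher and 0.514% with dmDR higher did not overlap at 63 days. At 90 days these shares were 2.03% and 2.88%. Nsg1, a protein of neuronal endosomes, was at 218 to 325 CPM in dlDR and 454 to 774 CPM in dmDR cells of 63 days, a log2 ratio of -1.3, and gave 1.01 at 90 days. Hdac11, a histone deacetylase, gave a log2 ratio of 1.18 at 63 days and -0.82 at 90 days.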

How the results depend on the processing

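No paired analysis was possible because the replicate numbers only name cells and no test was made. The 25 dlDR and 72 dmDR genes became 1 and 12 with a mean of at least 50 CPM, 6 and 16 at 4-fold, 3 and 12 at 90% of pairs, and 47 and 122 without the condition within ages. Leaving out each cell gave 19 to 42 dlDR and 65 to 96 dmDR genes, and leaving out cells above 200 CPM of oligodendrocyte genes gave 42 dlDR genes. The median log2 ratio of all genes was -0.011 with total counts and with TMM, -0.0101 with thinning and 0.0398 with DESeq2 factors. Canonical correlation left 1 dmDR cell in cluster 2 in place of 4, and of the others cells 3 and 7 went to cluster 12, whose marker Met had no read in them, and cell 8 to cluster 3. Using 20 dimensions in place of 30 for the match left 3 dmDR cells in cluster 2, with cell 8 again in cluster 3. With Pearson correlation the medians were 0.566 within dlDR, 0.613 within dmDR and 0.59 between them. Of 1404 alternative values of 52 genes, 1391 moved by less than the spread between cells, 13 (of 6 genes) moved by more, and 0 of them were reversals of a called value. That spread is a wide limit, as for Dnmt1 in dlDR, with a mean of 25.31 and an SD of 25.85 CPM. The count of 1391 therefore says little about how firm the gene set is. The cause of the changes with processing was not tested, except that stricter thresholds keep fewer genes by construction. Depth limits genes of a few CPM, where a cell without a read may hold the transcript.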
